A study of Mus musculus with 6 samples.

Results

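The feedback genes described here are 10 genes that dampen or report signalling through the RAS-ERK pathway: Spry1, Spry2, Spry4, Spred1, Spred2, Dusp4, Dusp5, Dusp6, Etv4 and Etv5. They were taken as all probe sets whose platform annotation gives exactly 1 gene symbol and that symbol is one of the 10, which gave 28 of the 45101 probe sets on the array. RNA came from 344SQ cells, a mouse lung cancer line, grown in RPMI medium with serum and carrying vectors for either a control short hairpin RNA (shRNA, 3 arrays) or an shRNA against Pik3ca (3 arrays), the gene for the p110-alpha catalytic subunit of phosphoinositide 3-kinase (PI3K). The vectors were introduced into both groups with a lipid reagent. The labels give no further allele of the line, no time after transfection, no number of hairpins, and do not say whether the cells were a pool or a clone. The question is how transcript levels change after Pik3ca knockdown. Whether replicates were grown separately is not stated, and every p-value is therefore relative to a spread among arrays that may be purely technical.

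Growth factor receptors activate RAS, which starts the kinase cascade of RAF, MEK and ERK. Active ERK switches on genes for its own inhibitors. Sprouty proteins act between receptor and RAF, SPRED proteins bring the RAS inhibitor neurofibromin to the membrane, and the dual-specificity phosphatases (DUSP) remove the activating phosphates from ERK and related kinases. ETV4 and ETV5 are ETS transcription factors of the PEA3 group whose transcripts are widely used, with those of the inhibitors, as a readout of ERK output.

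Knockdown of the target was visible on every array: the brightest Pik3ca probe set read 2450, 2324 and 2364 on the control arrays and 1249, 1237 and 1220 on the PIK3CA shRNA arrays, a log2 change of -0.94 ± 0.05 (SE, limma adjusted p = 0.000762). Levels are given as linear intensities scaled to the same median on each array. A change is the PIK3CA shRNA mean less the control mean of log2(intensity + 16), and for dim probe sets this makes changes look smaller. The deposited median intensity was 134.6 to 135.0 on the 6 arrays. Of 7 epithelial markers, 0 were called by limma at adjusted p 0.05 (0 higher and 2 lower at unadjusted p 0.05). The 2 lower were Krt7 and Epcam, with changes of -0.22 and -0.33 (limma adjusted p = 0.0537 and 0.167). The keratin gene Krt8 was bright in both groups, at 11903 ± 320 and 12469 ± 126 (SD, n = 3 each). For Krt8 the knockdown arrays lay above the controls without overlap, whereas for Krt7 and Cdh1 they lay below without overlap. Cldn4 was dim, with group means of 82.2 (control) and 99.2 (PIK3CA shRNA). Of 5 measured lung lineage markers, 0 were called (0 at unadjusted p 0.05 in limma). The lung lineage factor gene Nkx2-1 was dim in both groups, at 116 ± 21.5 and 102 ± 33.2 (SD, n = 3 each), as was the surfactant gene Sftpc at 94.2 ± 10.2 and 90.2 ± 14.9 (SD, n = 3 each), while the surfactant gene Sftpb was bright, at 1223 ± 87.8 and 1389 ± 71.0 (SD, n = 3 each), with the PIK3CA shRNA arrays above the controls without overlap (limma adjusted p = 0.229). Summed over 5 leukocyte markers, the intensity was 421 to 557 on control and 464 to 542 on PIK3CA shRNA arrays, with 0 called (0 at unadjusted p 0.05). Over 5 endothelial markers it was 494 to 580 and 530 to 651, with 0 called (1 higher and 1 lower at unadjusted p 0.05). The 5 fibroblast markers summed to 477 to 513 on control and 327 to 465 on PIK3CA shRNA arrays. Of them 1, Dcn, was called lower (-0.75), and 0 were higher and 2 lower at unadjusted p 0.05 in limma. The second was Lum (-0.39, limma adjusted p = 0.0900). Both were dim, with control and PIK3CA shRNA means of 74.1 and 37.6 for Dcn and 99.5 and 71.4 for Lum. The groups of Col1a1, Col1a2 and Pdgfrb overlapped, and Pdgfrb read only 6.37 and 4.87 in the 2 groups. The part of these sums in the results below was not tested. In a measurement on bulk RNA, fewer cells that express a gene and less of its RNA per cell cannot be told apart.

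Spry2 and Spred1 rose and Dusp4 fell in the PIK3CA shRNA cells, while the other 7 genes did not pass the threshold of adjusted p 0.05. Each gene was represented by its brightest probe set, and limma was fitted over 18193 genes. The 3 of 10 members called compare with 11.5% of all genes called in either direction, the 2 higher with 5.88%, and the 1 lower with 5.62%. The intensities of the 2 groups did not overlap in 8 of the 10 genes, 6 with PIK3CA shRNA above and 2 with it below, against 33.1% of all genes. At unadjusted p 0.05, 6 members were higher and 2 lower, against 25.9% of all genes in either direction. These shares include dim genes, whereas all 10 members were brighter than the median gene. In the fit with dim genes left out, 7 of the 10 members and 33.2% of the 9096 genes tested were called. The median change of the members was 0.19, and that of all genes -0.01. Of all genes, 2093 were called. With 1 control array left out this number was 1047 (replicate 1), 987 (replicate 2) or 1069 (replicate 3), and with 1 PIK3CA shRNA array left out it was 963 (replicate 1), 1138 (replicate 2) or 945 (replicate 3). Spry2 and Spred1 were called in all 6 of these fits and Dusp4 in 0 of them, although limma still gave Dusp4 a change of -0.32 to -0.27 (adjusted p 0.0779 to 0.114; lower at unadjusted p 0.05 in every one).

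**Figure D1:**
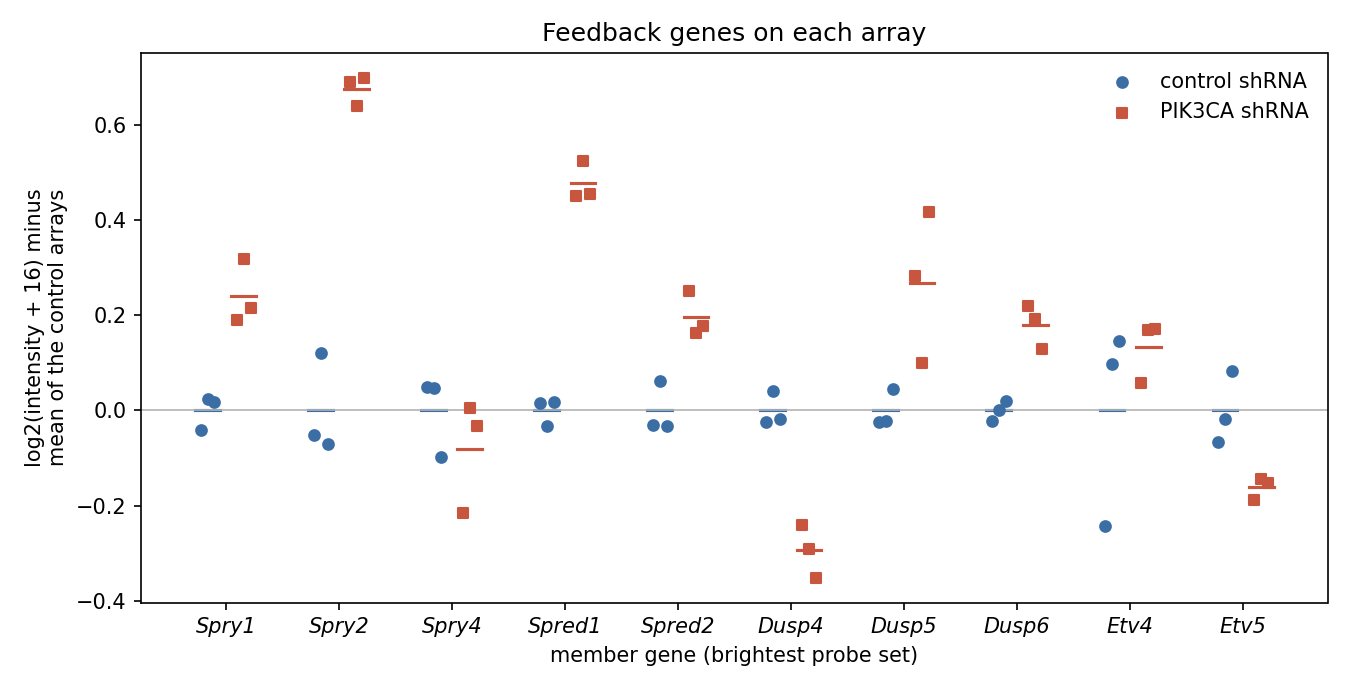
Log2(intensity + 16) of the brightest probe set of each feedback gene on each of the 6 arrays, minus the mean of the 3 control arrays; circles are control shRNA, squares PIK3CA shRNA, and short lines group means. Squares lie above all circles for 6 genes, with Spry2 highest at a mean of 0.68, below all circles for Dusp4 and Etv5, and among them for Spry4 and Etv4.

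Spry2 had the largest change of the 10. The Sprouty-2 protein it encodes binds adaptor proteins and the ubiquitin ligase CBL and limits signalling from fibroblast growth factor and other receptors to ERK. Its brightest probe set, 1436584_at, read 2458, 2771 and 2424 on the control arrays and 4117, 3977 and 4143 on the PIK3CA shRNA arrays. Every PIK3CA shRNA array was above every control array, and the PIK3CA shRNA mean was 160% of control. The log2 change was 0.68 ± 0.07 (SE; 95% confidence interval 0.49 to 0.86; limma adjusted p = 0.00578). Of all genes tested, 6.02% had a larger absolute change. The second probe set, 1421656_at, read 629, 835 and 753 in control and 996, 968 and 869 in PIK3CA shRNA cells. These groups did not overlap either, but the change of 0.35 ± 0.13 (SE) did not pass in the fit over all probe sets (limma adjusted p = 0.197).

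The other Sprouty genes encode inhibitors of the same kind. Spry1, with 1 probe set, read 1426, 1491 and 1484 in control and 1676, 1834 and 1704 in PIK3CA shRNA cells. The groups did not overlap, and the change of 0.24 (95% confidence interval 0.09 to 0.40) missed the threshold (limma adjusted p = 0.0694). The brightest of the 4 Spry4 probe sets, 1445669_at, read 557, 556 and 502 in control and 461, 540 and 525 in PIK3CA shRNA cells. These groups overlapped, with a change of -0.08 (95% confidence interval -0.30 to 0.13; limma adjusted p = 0.628). The other 3 Spry4 probe sets were dimmer, with means of 30.1 to 196 across the groups, and their changes ran from -0.43 to -0.26 with standard errors of 0.28 to 0.29. Spry2 and Spry4 therefore had intervals that did not meet, 0.49 to 0.86 against -0.30 to 0.13, whereas that of Spry1 met the upper part of that of Spry4.

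Spred1, which encodes the SPRED protein mutated in Legius syndrome, a disorder of RAS regulation, also rose. Its brightest probe set, 1423160_at, read 2353, 2274 and 2356 in control and 3187, 3356 and 3196 in PIK3CA shRNA cells. The 3 PIK3CA shRNA arrays were all above the controls, at 139% of the control mean. The change was 0.48 ± 0.06 (SE; 95% confidence interval 0.34 to 0.62; limma adjusted p = 0.00757). Of its 8 probe sets, 2 more were called in the fit over all probe sets, 1423161_s_at at 0.42 (adjusted p = 0.0247) and 1423162_s_at at 0.58 (adjusted p = 0.0263). The suffix s marks probe sets designed to match several transcripts, and x those with probes that can match unrelated ones. Of the remaining 5, 4 read 0.16 to 0.38 without passing, and 1 of these 4, 1445228_at, did not exceed an intensity of 13.5 on any array. The last, 1443652_x_at, read 213, 232 and 217 in control and 45.0, 147 and 275 in PIK3CA shRNA cells. Its groups overlapped, and its change was -0.73 ± 0.55 (SE), with the opposite sign to the others. Without PIK3CA shRNA replicate 1 it read -0.12. When all 8 probe sets were averaged, Spred1 read 0.22 and was not called (limma adjusted p = 0.344).

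Spred2 encodes the closest relative of SPRED1 among the members. Its brightest probe set, 1434403_at, read 3171, 3384 and 3169 in control and 3859, 3627 and 3667 in PIK3CA shRNA cells. The groups did not overlap, and the change of 0.20 (95% confidence interval 0.04 to 0.35) was not called (limma adjusted p = 0.110). Its other 4 probe sets read from -0.33 to 0.12, and the mean of all 5 was -0.05. One of them, 1441802_at, lay at 159, 149 and 138 in control and at 120, 133 and 118 in PIK3CA shRNA cells, without overlap and in the opposite direction to the brightest.

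Over the 28 probe sets, 4 were called and all 4 were higher (14.3%, against 4.94% of all 45037 probe sets tested), 1 of Spry2 and 3 of Spred1. None was called lower by limma at adjusted p 0.05, and 2 were lower at unadjusted p 0.05. The groups did not overlap in 14 of the 28, against 27.3% of all probe sets. Whether another probe set of a gene responded differently from its brightest was tested in 18 pairs by an exact two-sided permutation test of their within-array difference. It reached 0.1, the smallest p that 3 arrays against 3 allow, in 3 pairs, 1421656_at of Spry2, 1443652_x_at of Spred1 and 1441802_at of Spred2 (adjusted p = 0.554 over the 18 for each exact test). Probe sets of 1 gene share their RNA and are not replicates.

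**Figure D2:**
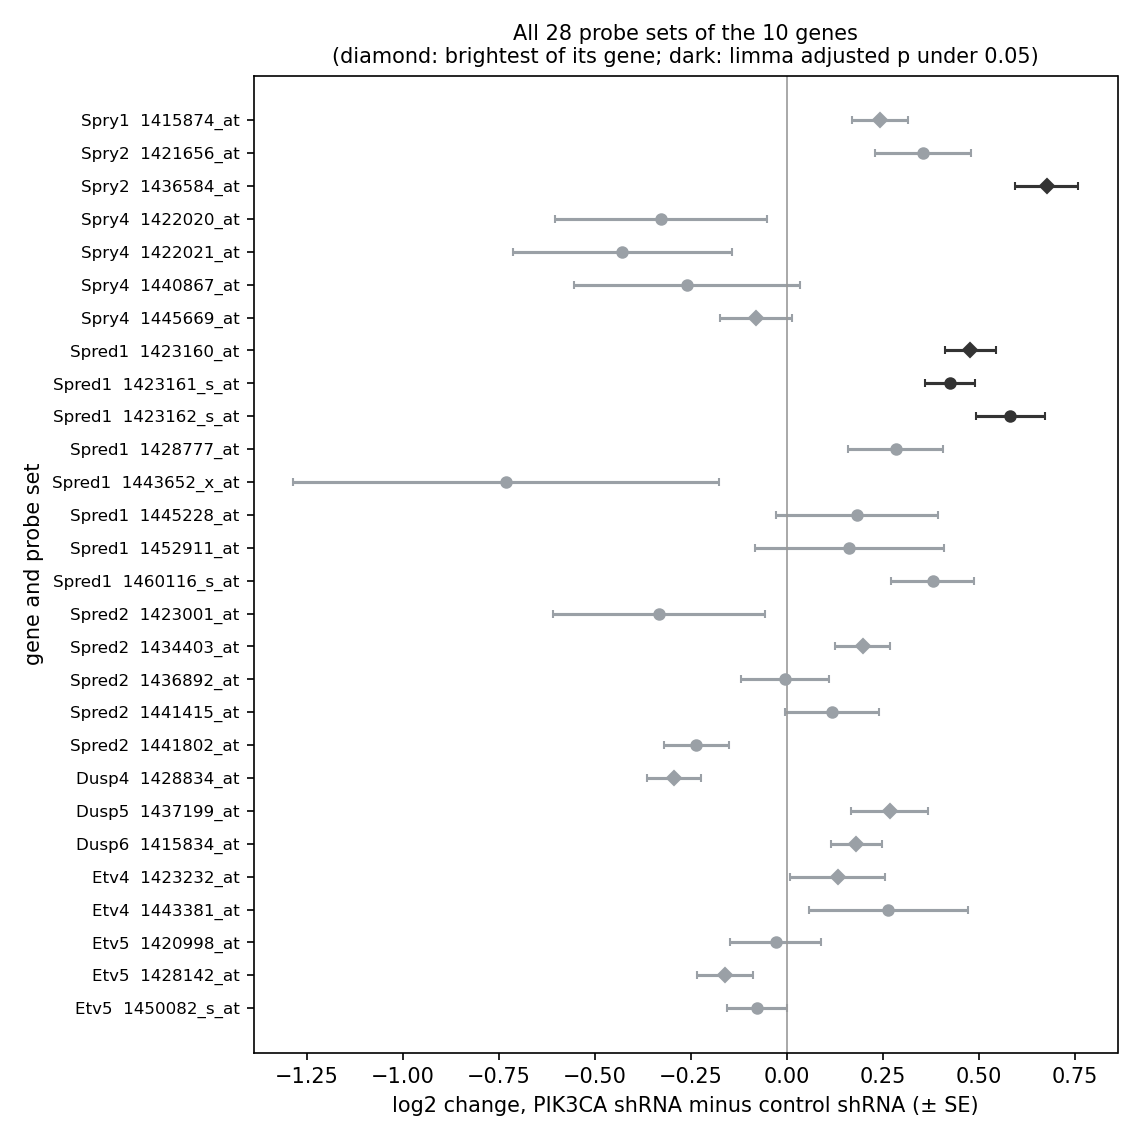
Log2 change (PIK3CA shRNA minus control shRNA) with its standard error for each of the 28 probe sets, by gene; diamonds are the brightest probe set of a gene and dark symbols have a limma adjusted p under 0.05 over all probe sets. The dark symbols are 1 Spry2 and 3 Spred1 probe sets between 0.42 and 0.68, and the widest error is that of the Spred1 probe set 1443652_x_at.

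Of the 3 phosphatase genes, 1 was called. Dusp4, whose nuclear product acts on ERK and the stress-activated kinases, read 4701, 4918 and 4716 in control and 4042, 3902 and 3742 in PIK3CA shRNA cells. All PIK3CA shRNA arrays were below the controls, at 81.5% of the control mean. Its only probe set fell by 0.29 on the log2 scale, with a standard error of 0.06 (95% confidence interval -0.44 to -0.15; limma adjusted p = 0.0351). In the fit over all probe sets the same values gave an adjusted p of 0.0807. When each gene was represented by its most variable probe set (largest interquartile range), limma gave Dusp4 an adjusted p of 0.0814.

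Dusp5, which encodes a nuclear phosphatase selective for ERK, read 1418, 1420 and 1489 in control and 1758, 1547 and 1931 in PIK3CA shRNA cells. The groups did not overlap, but the PIK3CA shRNA arrays spread widely, with an SD of 192 against 40.3 in control. The change of 0.27 (95% confidence interval 0.03 to 0.50) was not called (limma adjusted p = 0.147). Dusp6, which encodes the cytoplasmic ERK phosphatase, read 7218, 7333 and 7432 in control and 8533, 8372 and 8018 in PIK3CA shRNA cells. These groups were also apart, with a change of 0.18 (95% confidence interval 0.04 to 0.32; limma adjusted p = 0.110). The interval of Dusp4 lay below 0 and those of Dusp5 and Dusp6 above it.

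Neither of the ETS factor genes, which report ERK output without inhibiting the pathway, was called. Etv4 (brightest probe set 1423232_at) read 470, 599 and 620 in control and 583, 630 and 631 in PIK3CA shRNA cells. The groups overlapped, and control replicate 1 was the lowest array. The change was 0.13 (95% confidence interval -0.16 to 0.43; limma adjusted p = 0.560), and it was 0.01 without control replicate 1. The other Etv4 probe set, 1443381_at, read 0.26 ± 0.21 (SE) with overlapping groups (limma adjusted p = 0.558 over all probe sets). Etv5 (brightest probe set 1428142_at) read 1254, 1297 and 1393 in control and 1150, 1187 and 1180 in PIK3CA shRNA cells. All PIK3CA shRNA arrays were below the controls, with a change of -0.16 (95% confidence interval -0.32 to -0.0033; limma adjusted p = 0.185). The other 2 Etv5 probe sets read -0.03 and -0.08.

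**Figure D3:**
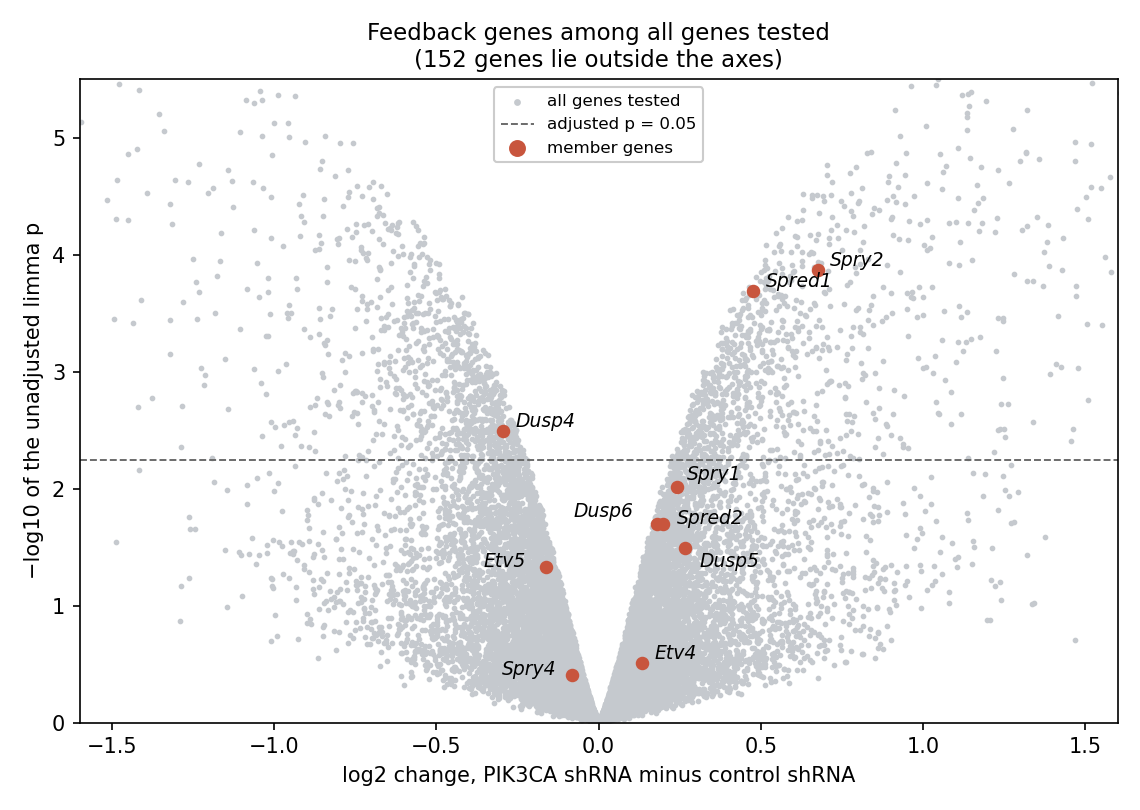
Log2 change (x axis) against −log10 of the unadjusted limma p (y axis) for all 18193 genes in grey and the 10 members in red; the dashed line marks adjusted p = 0.05, and genes beyond the axes are not drawn. Spry2, Spred1 and Dusp4 lie above the line, and Spry1 is the nearest below it.

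The count of members called varied with the settings. With the replicate number as a block, 0 members were called higher and 0 lower by limma (4 and 1 at unadjusted p 0.05). Of all genes, 413 were called in that fit. When probe sets were averaged per gene, 1 member was higher, Spry2, and 1 lower, Dusp4. At a threshold of 0.01, and with the most variable probe set of each gene, 2 were higher and 0 lower by limma (2 and 1 lower at unadjusted p 0.05). With genes of below-median brightness left out, 6 members were higher and 1 lower, against 33.2% of the 9096 genes then tested; Spry1 (adjusted p = 0.0147), Spred2 (0.0278), Dusp5 (0.0489) and Dusp6 (0.0263) were the added limma calls. Leaving out dim genes changes both the variance prior and the number of genes in the adjustment, and their parts were not separated. With an intensity trend and a robust prior 5 were higher and 1 lower, against 17.5% of all genes, the additions being Spry1, Spred2 and Dusp6. All 10 members were brighter than the median gene and passed that filter, which uses the mean over all 6 arrays. Etv4, Etv5 and Spry4 were called under none of the alternatives run.

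**Figure D4:**
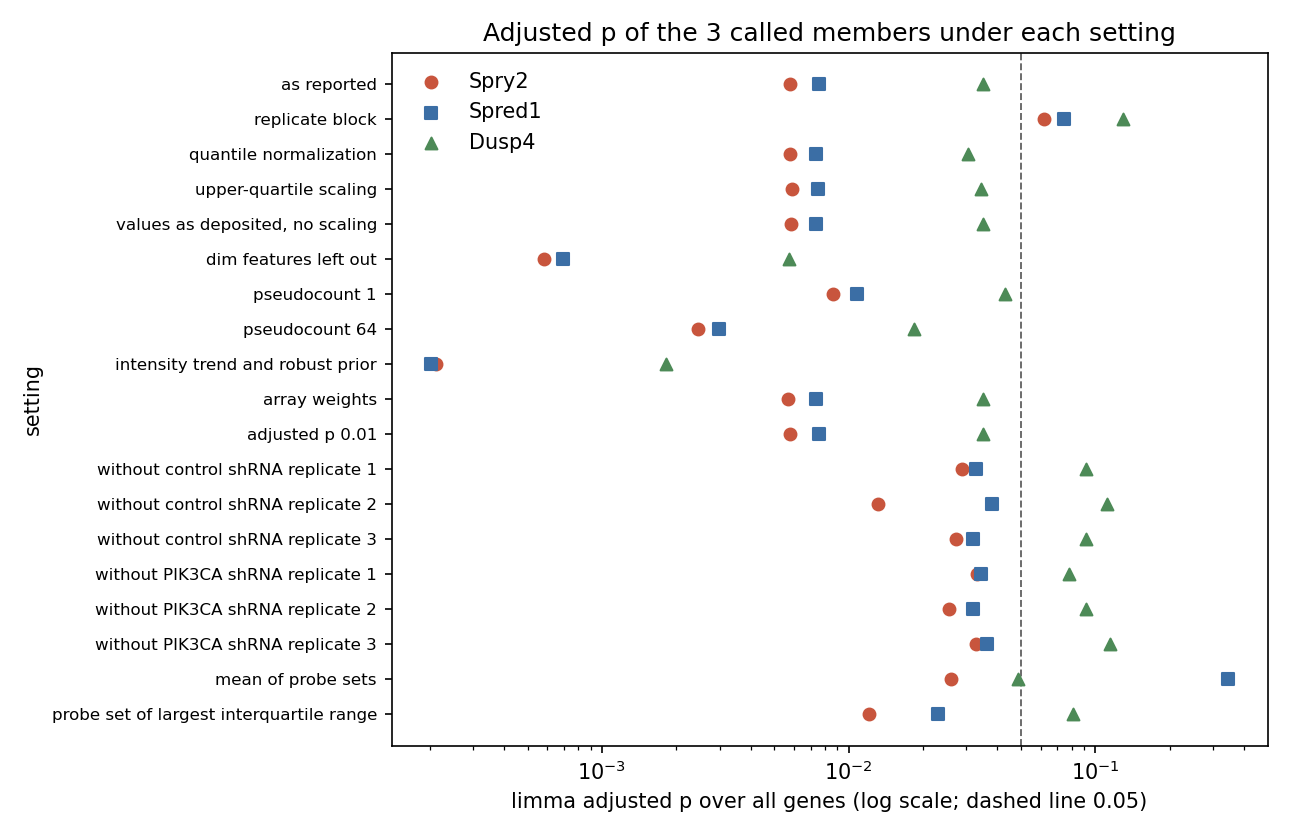
Limma adjusted p over all genes (x axis, log scale, dashed line at 0.05) of Spry2 (circles), Spred1 (squares) and Dusp4 (triangles) under each setting (y axis). Spry2 and Spred1 lie left of the line in every fit that leaves out 1 array, where Dusp4 lies right of it, and all 3 lie right of it with the replicate block.

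The promoters of the members that rose together are shown with that of Dusp5, the member with the most motif matches. Each is the 250 bases before the annotated start, from RefSeq on GRCm38.p6, written 5′ to 3′ on the gene's strand. Capitals mark a match to 1 of 6 motifs.
Spry2 (chr14:105896820-105897069, minus strand): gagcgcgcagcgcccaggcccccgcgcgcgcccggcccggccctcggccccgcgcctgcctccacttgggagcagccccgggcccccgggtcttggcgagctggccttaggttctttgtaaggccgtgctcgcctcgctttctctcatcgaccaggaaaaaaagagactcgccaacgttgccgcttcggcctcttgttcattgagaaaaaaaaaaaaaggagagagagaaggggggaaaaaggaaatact
Spred1 (chr2:117120821-117121070, plus strand): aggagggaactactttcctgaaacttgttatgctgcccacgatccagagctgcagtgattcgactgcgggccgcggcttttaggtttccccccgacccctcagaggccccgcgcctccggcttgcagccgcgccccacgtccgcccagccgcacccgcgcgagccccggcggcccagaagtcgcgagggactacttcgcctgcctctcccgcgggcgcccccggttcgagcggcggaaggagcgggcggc
Dusp5 (chr19:53528895-53529144, plus strand): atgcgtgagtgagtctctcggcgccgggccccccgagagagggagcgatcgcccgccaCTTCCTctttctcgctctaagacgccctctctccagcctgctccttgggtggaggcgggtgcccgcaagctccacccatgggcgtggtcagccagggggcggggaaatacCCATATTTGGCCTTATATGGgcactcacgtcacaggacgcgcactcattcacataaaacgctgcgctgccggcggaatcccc
The motifs were searched on both strands in 32851 windows of this length, and were chosen after the promoter sequences and the results were seen. They were an ETS core (CCGGAA, in 12.0% of windows), a PEA3 box (AGGAAG, 29.5%), a FOXO element (GTAAACA, 3.17%), a cyclic AMP response element (TGACGTCA, 1.55%), an AP-1 site (TGANTCA, 6.75%) and the CArG box bound by serum response factor (1.47%). No 2 of these motifs overlapped in the 3 windows shown. The windows of Spry2 and Spred1 held 0 matches to these letters, as did that of Spry1. That of Dusp5 held 2 adjacent CArG boxes, from 82 to 63 bases before the start, and a PEA3 box on the opposite strand. The Dusp6 window held 1 PEA3 box, that of Spred2 held 2, and 1 of the 2 Etv5 windows held a FOXO element. Windows of 7 members were used, and Spry4, Dusp4 and Etv4 were not among them. The selection of member windows left out a single whole chromosome. A member on that chromosome would be absent here even if it had a window, which cannot be the reason for members elsewhere. A match is a string of letters and was not tested as a binding site.

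The rest of the pathway was read from 7 lists holding 91 distinct measured genes. Of these, 14 were called (15.4%), which is near the 11.5% of all genes called, and within single lists the share ran from 5.88% to 25%. The counts by list are therefore a description, and nothing is read from them about the lists. Among 13 other inhibitors at the level of receptor, RAS and RAF, 2 rose and 0 fell (5 higher and 0 lower at unadjusted p 0.05 in limma), with a median change of 0.04. Spred3, the third SPRED gene, read 184, 142 and 140 in control and 237, 256 and 230 in PIK3CA shRNA cells, a rise of 0.59 (limma adjusted p = 0.0330). Spred3 kept this call in 1 of the 6 fits that left out an array. Dok1, an adaptor that recruits RAS GTPase-activating protein, rose by 0.35 (adjusted p = 0.0216). Of 9 other MAP kinase phosphatase genes, 1 rose and 0 fell (1 higher and 0 lower at unadjusted p 0.05 in limma). It was Dusp10 (0.34, adjusted p = 0.0180), whose product acts on p38 and JNK and not mainly on ERK.

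In the RAS-ERK cascade, 10 of 16 listed genes were measured here, and 1 rose and 1 fell. Rras2, a RAS-related GTPase gene, rose by 0.37 (limma adjusted p = 0.0253), and Lamtor3, which encodes a scaffold for MEK and ERK, was at -0.27 (adjusted p = 0.0429). Of 11 measured adaptors and exchange factors, 0 rose and 2 fell (2 higher and 2 lower at unadjusted p 0.05 in limma). They were Gab1 (-0.38, adjusted p = 0.0129), a docking protein for PI3K and SHP2, and Ptpn11 (-0.33, adjusted p = 0.0231), which encodes the phosphatase SHP2. Among 15 upstream receptor genes, 2 rose and 0 fell (4 higher and 0 lower at unadjusted p 0.05 in limma): Erbb3 (0.41, adjusted p = 0.0110), the ERBB receptor that couples most directly to PI3K, and Igf1r (0.33, adjusted p = 0.0478).

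On the output side, 3 of 16 other ERK-output transcripts rose and 1 fell, with a median of 0.08. The receptor gene Epha2 rose by 0.45 (limma adjusted p = 0.0188), and the AP-1 genes Fosl1 and Fos rose by 0.38 and 0.37 (adjusted p = 0.0139 and 0.0346). Ereg, which encodes the receptor ligand epiregulin, read 3016, 2984 and 3002 in control and 2286, 2333 and 2222 in PIK3CA shRNA cells, a change of -0.39 (adjusted p = 0.0110). Of 17 other ETS factors and repressors, 1 rose and 0 fell (5 higher and 0 lower at unadjusted p 0.05 in limma), namely Ets1 (0.44, adjusted p = 0.0136). Of the 14 called genes of these lists, 1 kept its call whichever array was left out, Erbb3, which read 0.14 and was not called when its 2 probe sets were averaged (limma adjusted p = 0.518). With that mean, Igf1r (0.15), Rras2 (0.29) and Ptpn11 (-0.28) were smaller and not called. Fosl1 (0.40), Dusp10 (0.59) and Lamtor3 (-0.27) were as large or larger and not called either (limma adjusted p 0.0746, 0.0787 and 0.0580).

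**Figure D5:**
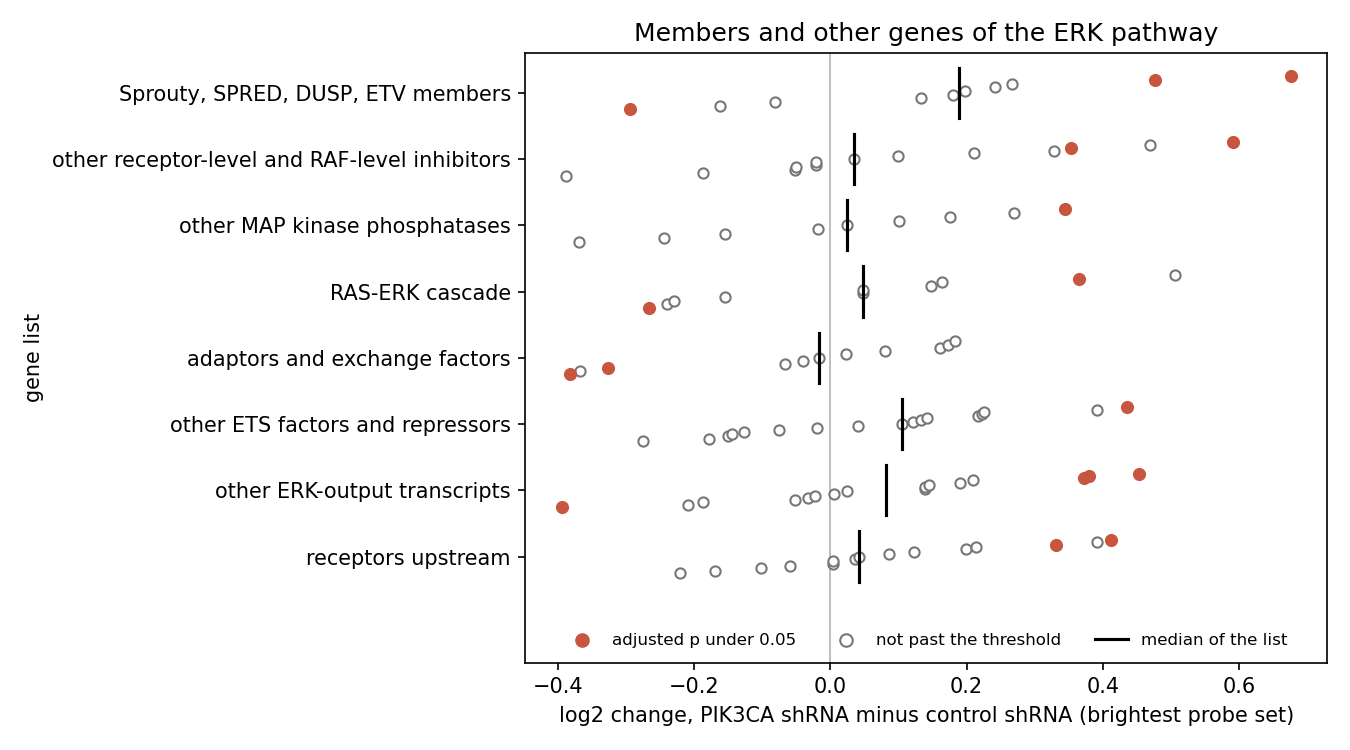
Log2 change of the brightest probe set (x axis) for each member and each measured gene of the 7 other pathway lists (rows); filled points have a limma adjusted p under 0.05 and vertical bars are list medians. The median of the members is 0.19 and those of the other lists run from -0.02 to 0.11, with called genes on both sides of 0 in the members, the cascade and the output transcripts.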

How the data were processed

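Total RNA of the 6 samples was labelled with biotin and hybridised to 1 Affymetrix array each, per the labels' protocols. The authors' deposited values are linear intensities, 1 per probe set, with the same minimum and maximum on all 6 arrays and nearly equal quartiles; the summarisation and normalization behind them are not given in the sources used here. No detection calls were used, and about 15.0% of values were below 16. Precision is limited by having 3 arrays a group.

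After 64 control probe sets were set aside, each array was scaled to the same median and log2(intensity + 16) was taken. Names came from the platform annotation, which gave 34945 probe sets 1 symbol, 932 several and 9160 none. A gene was its brightest probe set by the mean over all 6 arrays. The main test was limma (version 3.58.1, R 4.3.3; lmFit, eBayes, two-sided, no block). Benjamini-Hochberg adjustment ran over 18193 genes or, for single probe sets, over 45037 probe sets. Only the limma fit without a block, with its adjustment, was tested on simulated data. Same-numbered replicates were not treated as pairs.

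All members are named in the text, and every member probe set is labelled in the plot of probe sets. Other genes named are Pik3ca, up to 4 called genes per pathway list, cell type markers and some uncalled genes. Members and lists were chosen with earlier results of these data known. Alternatives covered the replicate block, scaling, dim genes, the pseudocount, the variance model, array weights, the threshold, the choice of probe set and each array left out. For the agreement of probe sets, the alternatives were chosen after seeing the data. Plots used matplotlib 3.10.9 (Python 3.11.15).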

Additional observations from a re-analysis of the deposited data

How the results depend on the processing

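The number of genes called was 2093; it was 413 with the replicate block, 3192 with an intensity trend and a robust prior, 636 at a threshold of 0.01, and 945 to 1138 with 1 array left out. Of probe sets, 2225 were called; the count was 185, 4672 and 593 under the same 3 settings, 4452 with dim features left out, 3631 at a pseudocount of 64, and 731 to 1015 with 1 array left out. The members called higher, 2 in the report, numbered 0 with the replicate block (4 at unadjusted p 0.05 in limma), 6 with dim features left out, 5 with the trend and 1 with the mean of probe sets. The 1 member called lower, Dusp4, was not called with the replicate block, at adjusted p 0.01, with the most variable probe set of each gene, or with any 1 array left out (0 in each, and 1 to 2 members lower at unadjusted p 0.05 in limma). Pairs of probe sets at the smallest exact p numbered 6 at a pseudocount of 64, against 3.

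With the replicate number as a block, the adjusted p was 0.0621 for Spry2, 0.0747 for Spred1 and 0.130 for Dusp4, and 0 of the 14 other called pathway genes were called by limma (adjusted p 0.0739 to 0.149; 14 at unadjusted p 0.05). Over probe sets above the median, the deviations of same-numbered arrays correlated at 0.129, -0.00324 and -0.0305. Those of different-numbered arrays correlated at -0.138 to 0.140. With 3 arrays a group the deviations are tied to each other, so whether the numbers pair the samples cannot be decided from them.

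Direction turned for the Spred2 gene value with the mean of probe sets (-0.052) and the most variable probe set (-0.33). With 1 array left out it also turned for 5 probe sets that were never called. Their changes ran from -0.12 to 0.085 (1420998_at of Etv5, highest without control replicate 1), -0.034 to 0.36 (1445228_at of Spred1, lowest without control replicate 2), -0.094 to 0.10 (1436892_at of Spred2, above 0 without control replicate 2 and, at 0.019, without PIK3CA shRNA replicate 3), -0.46 to 0.082 (1440867_at of Spry4) and -0.053 to 0.33 (1452911_at of Spred1), the last pair turning without PIK3CA shRNA replicate 2. The cause was not tested. Of the other values of 53 genes and probe sets, 723 kept their direction and side of the threshold, 145 lost and 17 gained a call. Quantile, upper-quartile or no scaling changed no member's call. The median change of all genes was -0.0130 to -0.0109 under them, against -0.0114. The deposited arrays were already nearly alike, with scale factors of 0.998 to 1.002, so these settings could change little and are a weak check.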

Other observations

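Some feedback genes outside the 10, and genes that act with them, did not pass the threshold. They were singled out after their values were seen. Lrig1, of the list of other receptor-level inhibitors, read 449, 481 and 470 in control and 624, 575 and 773 in PIK3CA shRNA cells, without overlap. Its change was 0.47 (limma adjusted p = 0.0641). Il17rd, which encodes the Sprouty-like inhibitor SEF, read 179, 166 and 172 in control and 186, 254 and 225 in PIK3CA shRNA cells, without overlap. Dusp1, an immediate early phosphatase gene, read 906, 1083 and 924 in control and 951, 736 and 772 in PIK3CA shRNA cells, with overlap. Errfi1, a feedback inhibitor of the EGF receptor, read 8121, 7987 and 7776 against 7925, 7557 and 8053. Nf1, the gene for neurofibromin, the partner of SPRED proteins, read 440, 422 and 546 against 413, 520 and 451. Cic, which encodes a repressor of Etv4 and Etv5 that ERK inactivates, read 698, 728 and 890 against 789, 765 and 816. Spry3 was dim, at 31 or below on every array.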
